A study of Mus musculus with 20 samples.

Results

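The Keap1-Nrf2 module was examined in bulk RNA-seq of kidney tumors and normal kidney tissue from mice. It was taken as 10 genes chosen by name out of the 54532 genes counted: Keap1, Cul3 and Rbx1, the transcription factor genes Nfe2l2 (encoding Nrf2) and Nfe2l1 (encoding Nrf1), the small Maf genes Mafg, Maff and Mafk, the repressor gene Bach1 and Sqstm1 (encoding p62). All 10 passed the filter on low counts, as did 15354 genes in all. The 10 tumors came from 10 C57BL/6 mice of the Cre-less model, which carried LSL-Cas9/+ and Pax8 Cre/+ and had received, by injection into the kidney, an AAV with sgRNAs that targeted Keap1, Tsc1, Pbrm1 and Vhl. The 10 normal kidney libraries were made from normal tissue of those mice, so they share the Cas9 and Cre alleles with the tumors. The mice had been injected, but the labels do not say whether the virus reached this normal tissue. Pax8 Cre switches Cas9 on in the kidney epithelium, and tumors also hold cells outside that lineage. The labels give neither the age at collection nor which kidney belonged to the mouse of which tumor.

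Keap1 is the substrate adaptor of a ubiquitin ligase built on the scaffold Cul3 and the RING protein Rbx1. In unstressed cells this ligase marks Nrf2 for destruction by the proteasome. When Keap1 is modified by electrophiles, is mutated or is held by p62, Nrf2 accumulates, pairs with a small Maf protein and switches on genes of glutathione, thioredoxin and NADPH metabolism. Bach1 pairs with the same small Maf proteins and represses overlapping genes, above all those of heme and iron. Much of this control acts on proteins, which RNA-seq does not measure.

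Keap1, Bach1, Sqstm1, Nfe2l1 and Mafg transcripts were higher in tumors than in normal kidneys, Nfe2l2 was lower, and Cul3, Rbx1, Maff and Mafk did not pass the test. Genes were called by the quasi-likelihood test of edgeR at an adjusted p under 0.05, with p-values adjusted over all genes tested by the Benjamini-Hochberg method. Of all genes tested, 23.6% were called higher and 23.8% lower, so the 5 rises and 1 fall among the 10 genes are to be read against a tissue contrast in which 47.5% of genes were called. Every tumor lay above every normal kidney for Keap1 and Bach1, which held for 5.87% of genes tested. No member had every tumor below every normal kidney, which held for 4.74%. Changes in bulk RNA cannot separate fewer cells of a type from less RNA per cell.

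**Figure D1:**
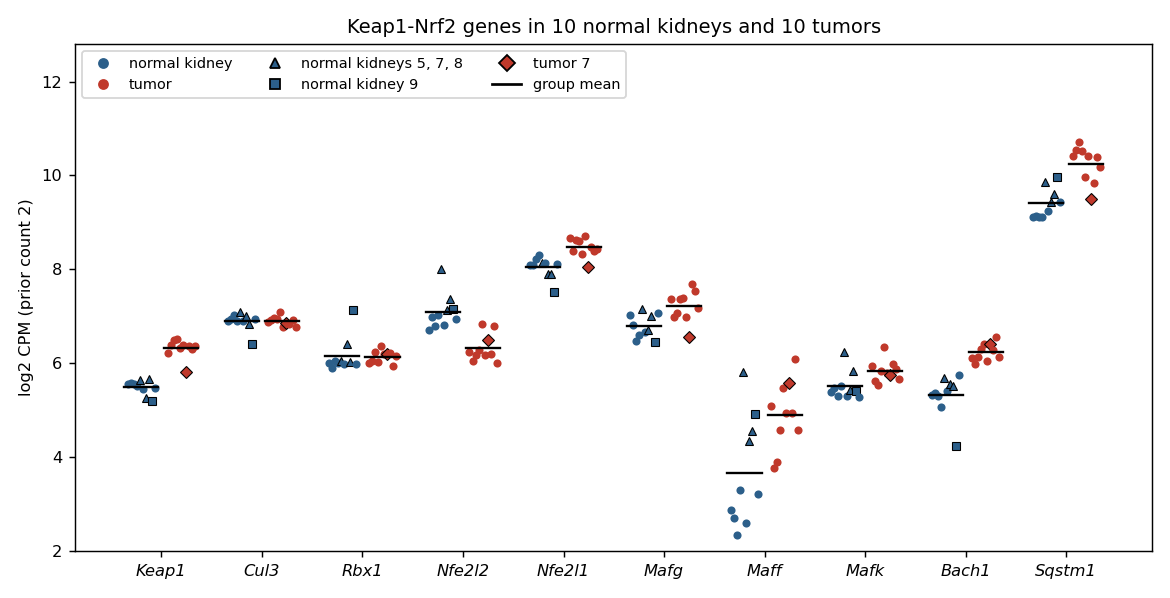
Level of each gene in each library (vertical axis, log2 CPM with a prior count of 2) for 10 normal kidneys in blue and 10 tumors in red, with black bars at the group means. Keap1 and Bach1 do not overlap between the groups, Nfe2l2 is shifted downward in tumors, and normal kidney 9, tumor 7 and normal kidneys 5, 7 and 8 have their own symbols.

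Several libraries stood apart before any of these genes was compared. Total counts ran from 14737516 to 26679704 per library. In normal kidney 9, genes of at least 5000 bases took 18.0% of the counts, against 33.7% to 39.8% in the other 19 libraries, and its TMM scaling factor was 0.749. In normal kidneys 5, 7 and 8 the 6 tubule injury markers summed to 36929, 49418 and 28271 CPM, against at most 4164 CPM in the other 7 kidneys and 8764 to 36980 CPM in tumors. Spp1 carried most of these sums, with means of 12514 CPM in normal kidneys and 16263 CPM in tumors. Each other marker had a mean of at most 800 and 298 CPM. Between the groups, Vcam1 was called higher in tumors and Lcn2 lower (log2 fold change -5.00, adjusted p = 0.00491), and the other 4 were not called. Tumor 7 had the highest summed fibroblast and pericyte markers (6467 CPM, with a tumor median of 160 CPM) and macrophage markers (1563 CPM, with a median of 420 CPM), and the lowest summed proximal tubule markers (1132 CPM, with a median of 5649 CPM). Of 10 proximal tubule markers, 4 were lower in tumors (40%, against 23.8% of all genes tested) and none higher. The 4 were Kap, Slc22a8, Slc5a2 and Aqp1, with log2 fold changes of -12.3, -3.74, -3.54 and -2.62. Summed, the 10 ran from 1132 to 9566 CPM in tumors and from 2402 to 16495 CPM in normal kidneys (medians 5649 and 9294 CPM). Kap alone ran from 1.38 to 10152 CPM across the normal kidneys. Loop of Henle markers (4 of 5 lower), distal convoluted tubule markers (4 of 4 tested lower), collecting duct markers (4 of 4 tested lower) and intercalated cell markers (5 of 5 lower) had summed levels of at most 160, 44.9, 25.9 and 10.8 CPM in tumors, against at least 3647, 409, 166 and 119 CPM in normal kidneys. Their shares lower, 80% for the loop of Henle and 100% for the others, compare with 23.8% of all genes tested. Aqp2 of the collecting duct was at 0 in 7 tumors and Calb1 of the distal convoluted tubule in 6. Macrophage markers were higher in tumors for 5 of 7 genes (71.4%, against 23.6% of all genes tested), with sums of 271 to 1563 CPM against 122 to 490 CPM. The part of this tissue composition in the differences given here was not tested.

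The ligase genes come first, because Keap1 was a target of the sgRNAs. Keap1 (ENSMUSG00000003308, GRCm38, chromosome 9, 21229730 to 21239361, minus strand) ranged in tumors from 56.0 CPM in tumor 7 through a median of 82.3 CPM to 91.3 CPM in tumor 4. In normal kidneys it ranged from 36.6 CPM in kidney 9 through a median of 46.4 CPM to 50.6 CPM in kidney 8. The lowest tumor thus lay above the highest normal kidney, and without tumor 7 the gap between the groups was wider still. Its log2 fold change was 0.83 (SE 0.0887, 95% interval 0.65 to 1.02, adjusted p = 1.3e-07), a 1.78-fold higher level in tumors. A gene count does not tell edited from unedited transcripts, so a Keap1 level above that of normal tissue says nothing about whether the transcripts were intact. An antisense gene, Gm16754, shares 510 exon bases with Keap1 but had 303 counts over all libraries against 25100 for Keap1.

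Cul3, the scaffold that holds Keap1, was not called. Its levels were 108.9 to 136.2 CPM in tumors (median 118.5 CPM) and 84.9 to 136.5 CPM in normal kidneys (median 120.9 CPM), with full overlap. Its log2 fold change was -0.01 (SE 0.0822, adjusted p = 0.932), and the 95% interval of -0.18 to 0.16 excludes a difference as large as that of Keap1. As a consequence of both measurements, the per-length ratio of Keap1 to Cul3 was 0.501 to 0.792 in tumors and 0.310 to 0.458 in normal kidneys, without overlap.

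Rbx1, the RING subunit that recruits the ubiquitin-loaded enzyme, ranged from 61.4 to 81.9 CPM in tumors (median 71.8 CPM). In normal kidneys it ranged from 59.7 to 141.1 CPM (median 64.5 CPM), and the highest value, in kidney 9, stood above the next at 85.2 CPM in kidney 7. The log2 fold change of -0.06 (SE 0.135, 95% interval -0.35 to 0.22, adjusted p = 0.721) turned to 0.08 (adjusted p = 0.357) without normal kidney 9, so no direction can be given for Rbx1. Its pseudogene Rbx1-ps had 80 counts in all against 28701.

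Nfe2l2 (ENSMUSG00000015839, chromosome 2, 75675513 to 75704641, minus strand), the gene of the factor that Keap1 restrains, was the sole member to fall. It ranged from 64.2 CPM in tumor 10 through a median of 74.4 CPM to 113.7 CPM in tumor 5. Normal kidneys ran from 103.7 CPM in kidney 1 through a median of 128.4 CPM to 257.6 CPM in kidney 5. In all, 8 tumors lay below all normal kidneys, and tumors 5 and 9, at 113.7 and 110.5 CPM, lay among the lowest kidneys. Nfe2l2 had a log2 fold change of -0.79 (SE 0.157, 95% interval -1.12 to -0.47, adjusted p = 0.000282). Among the normal kidneys, the highest Nfe2l2 levels were those of kidneys 5, 8, 9 and 7 (257.6, 164.6, 142.3 and 141.1 CPM), and the other 6 had at most 130.5 CPM. Of these 4 kidneys, 3 are those with high injury markers. An alternative chosen after seeing the data left out kidneys 5, 7 and 8, and Nfe2l2 was still called lower, at -0.57 (adjusted p = 0.00119).

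Nfe2l1 encodes Nrf1, a related factor that sits in the endoplasmic reticulum membrane, is cut free when proteasomes are overloaded and then raises proteasome genes. It ranged from 262.8 to 420.1 CPM in tumors (median 348.9 CPM) and from 183.1 to 318.0 CPM in normal kidneys (median 275.5 CPM). For Nfe2l1, 9 tumors lay above all normal kidneys, and the exception was tumor 7. Its log2 fold change was 0.42 (SE 0.108, 95% interval 0.19 to 0.64, adjusted p = 0.00313), and scaling by library totals lowered it to 0.27 and ended the call (adjusted p = 0.0955). The related genes therefore went opposite ways, and their per-length ratio, Nfe2l1 to Nfe2l2, was 1.97 to 4.07 in tumors and 0.758 to 1.89 in normal kidneys.

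**Figure D2:**
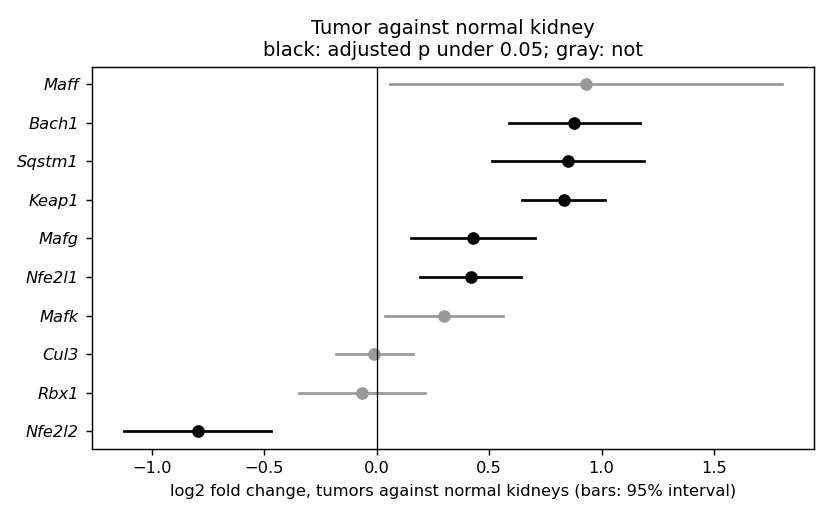
Log2 fold change of each gene between 10 tumors and 10 normal kidneys (horizontal axis), with 95% intervals as bars and genes with an adjusted p under 0.05 in black. Maff has the widest interval, from 0.06 to 1.80, Cul3 and Rbx1 sit near 0 and Nfe2l2 lies to the left of 0.

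The small Maf proteins lack an activation domain of their own and serve both Nrf2 and Bach1 as DNA-binding partners. Mafg, the most abundant of the 3 per length, ranged from 94.6 to 204.7 CPM in tumors (median 154.8 CPM) and from 87.2 to 142.2 CPM in normal kidneys (median 108.0 CPM). For Mafg, 6 tumors lay above all normal kidneys, while tumor 7 lay among the lowest kidneys. In the test, Mafg had a log2 fold change of 0.43 (SE 0.133, 95% interval 0.15 to 0.70, adjusted p = 0.0117), and the call was lost with upper-quartile scaling (0.31, adjusted p = 0.051) and with library totals (0.29, adjusted p = 0.104). Mafg shares 124 exon bases with Sirt7 on the same strand, which had 15274 counts in all against 52873 for Mafg.

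Maff, an inducible small Maf, had the widest spread of the 10 genes. It ranged from 13.5 CPM in tumor 2 through a median of 30.5 CPM to 67.9 CPM in tumor 9. In normal kidneys the median was 9.45 CPM, but kidneys 5, 9, 8 and 7 had 56.2, 29.9, 23.6 and 20.2 CPM while the other 6 had 4.98 to 9.7 CPM. These are the same 4 kidneys that had the highest Nfe2l2. They also had the highest summed immediate early genes (1139, 585, 473 and 408 CPM for kidneys 5, 9, 8 and 7, against at most 284 CPM in the other 6 kidneys; tumors ranged from 226 to 658 CPM). The log2 fold change was 0.93 (SE 0.419, 95% interval 0.06 to 1.80, adjusted p = 0.0727). Without normal kidney 5 it was 1.34 (adjusted p = 0.00525), and without kidneys 5, 7 and 8 it was 1.67 (adjusted p = 0.00187).

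Mafk ranged from 46.0 to 80.9 CPM in tumors (median 56.0 CPM) and from 38.8 to 75.4 CPM in normal kidneys (median 42.8 CPM). Its highest values in both groups belonged to library number 5, and the next normal kidney had 56.8 CPM. The log2 fold change of 0.30 (SE 0.126, 95% interval 0.04 to 0.56) had an adjusted p of 0.0564. It passed the threshold without normal kidney 5 (0.40, adjusted p = 0.00322), normal kidney 8 (0.33, adjusted p = 0.0409), tumor 2 (0.33, adjusted p = 0.0477) or tumor 3 (0.33, adjusted p = 0.04), and without kidneys 5, 7 and 8 together (0.47, adjusted p = 0.000979). Mafk shares 169 exon bases with Tmem184a on the opposite strand, which had 8487 counts against 20866. Summed per length, the 3 small Maf genes had a median of 51.0 RPKM in tumors and 37.1 RPKM in normal kidneys, with overlapping ranges of 40.2 to 74.2 and 27.7 to 66.3 RPKM. Maff made up a median of 20.8% of that sum in tumors (12.9% to 37.4%) and 10.5% in normal kidneys (6.92% to 32.7%).

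After each group's mean was removed, Maff and Mafk varied with Nfe2l2 over the 20 libraries (Spearman's rho 0.80 and 0.72, given as descriptions). Their promoters, with those of Nfe2l2 and Mafg, hold the core letters of the antioxidant response element, TGACNNNGC, to which Nrf2 and small Maf proteins bind. Windows of 300 bases around each start, 250 before and 50 after, were searched on both strands in RefSeq sequence of GRCm38.p6, where 12.4% of 32851 promoters hold these letters. All 10 genes matched, with 16 windows. The letters occurred in 4 of the 16 windows, which belong to these 4 genes. Each match is shown on the strand of the gene with 10 bases on either side, and capitals mark it.
Nfe2l2, chr2:75704885-75704913, minus strand, 240 bases before the start: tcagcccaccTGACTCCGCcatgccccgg
Maff, chr15:79346499-79346527, plus strand, 112 bases before the start: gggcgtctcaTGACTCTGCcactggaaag
Mafk, chr5:139791513-139791541, plus strand, 13 bases before the start, on the opposite strand: gatcccggaaGCGGTGTCAgtactgggga
Mafg, chr11:120633751-120633779, minus strand, 222 bases before the start, on the opposite strand: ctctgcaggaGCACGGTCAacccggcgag
The stricter form TGACTCAGC, found in 0.454% of all promoters, was in none of the 10. The palindrome CACGTG, which bHLH factors bind and which 7.15% of promoters hold, occurred in 3 of the 16 windows. They belong to the same 3 small Maf genes, and no other member had it. The looser TGANNNNGC, which includes the first motif, occurred in 41.3% of promoters and in 10 of the 16 windows. These belong to 6 members, the 4 above with Keap1 and Nfe2l1, and 1 site of Nfe2l1 lies in several overlapping windows. These matches are letters in a window and do not show binding.

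Bach1 (ENSMUSG00000025612, chromosome 16, 87698945 to 87733346, plus strand) ranged from 62.9 CPM in tumor 2 through a median of 73.7 CPM to 94.5 CPM in tumor 9. Normal kidneys ran from 18.7 CPM in kidney 9 through a median of 41.5 CPM to 53.5 CPM in kidney 10. No tumor overlapped with a normal kidney. Bach1 had a log2 fold change of 0.88 (SE 0.14, 95% interval 0.59 to 1.17, adjusted p = 2.6e-05). Leaving out normal kidney 9 and tumor 7 together did not end the call of any of the 6 genes that passed.

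Per length, the repressor and the adaptor both gained on Nfe2l2. The ratio of Bach1 to Nfe2l2 was 0.455 to 0.670 in tumors (median 0.584) and 0.0806 to 0.267 in normal kidneys (median 0.202). Keap1 to Nfe2l2 was 0.506 to 1.03 in tumors (median 0.923) and 0.157 to 0.366 in normal kidneys (median 0.287). The Keap1 to Nfe2l2 ratio was 0.801 to 1.03 in 7 tumors but 0.571, 0.506 and 0.578 in tumors 5, 7 and 9, and every normal kidney had more Nfe2l2 than Keap1. These ratios restate the levels above, carry no test of their own, and are of RNA only.

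**Figure D3:**
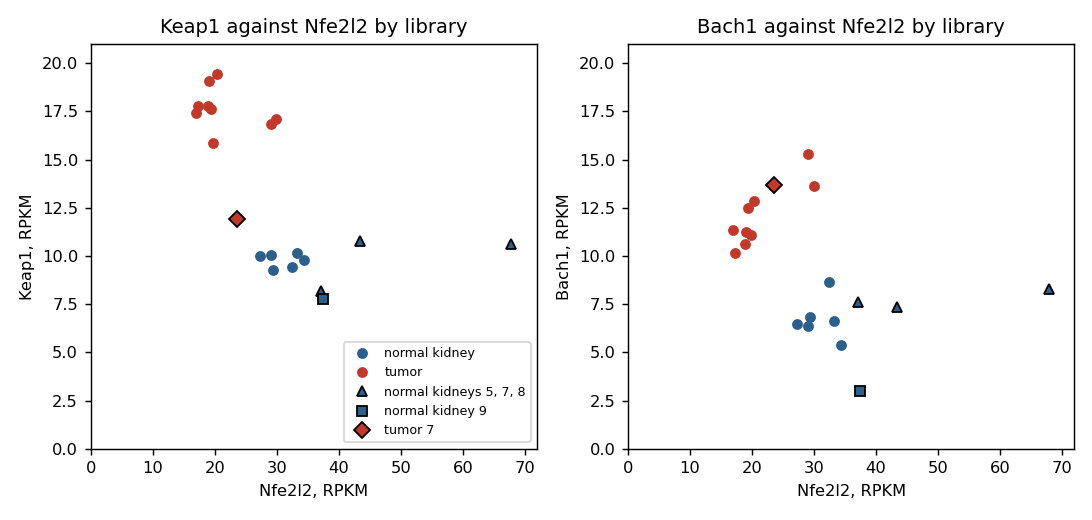
Keap1 (left) and Bach1 (right) against Nfe2l2 in each of 20 libraries, all in RPKM, with tumors in red and normal kidneys in blue. Tumors lie to the upper left, with Keap1 of 11.9 to 19.4 RPKM against 7.79 to 10.8 RPKM in normal kidneys, and kidney 5 lies far to the right at 67.9 RPKM of Nfe2l2.

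Sqstm1 (ENSMUSG00000015837, chromosome 11, 50199366 to 50210827, minus strand) encodes the autophagy receptor p62, which can hold Keap1 and is itself a target of Nrf2. It ranged from 725 CPM in tumor 7 through a median of 1347 CPM to 1684 CPM in tumor 3. In normal kidneys it ranged from 551 CPM in kidney 3 through a median of 652 CPM to 1006 CPM in kidney 9. For Sqstm1, 7 tumors lay above all normal kidneys, and tumors 7, 8 and 5 (725, 914 and 995 CPM) lay below kidney 9. Sqstm1 had a log2 fold change of 0.85 (SE 0.163, 95% interval 0.51 to 1.19, adjusted p = 0.000203). Sqstm1 and Keap1 rose to a like degree, and the per-length ratio of Sqstm1 to Keap1 overlapped (15.5 to 26.3 in tumors and 16.4 to 38.5 in normal kidneys). Mrnip shares 580 exon bases with Sqstm1 on the opposite strand and had 1525 counts in all against 389061.

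By level per length, Sqstm1 stood apart in both groups (medians 401 RPKM in tumors and 194 RPKM in normal kidneys). Nfe2l1 was next, with 64.1 and 50.6 RPKM. In tumors the order continued with Mafg (27.6), Cul3 (24.3), Nfe2l2 (19.6), Keap1 (17.5), Rbx1 (15.8), Mafk (14.4), Bach1 (11.9) and Maff (11.8 RPKM), and each of these overlapped in range with its neighbour. In normal kidneys Nfe2l2 came after Nfe2l1 with 33.8 RPKM, followed by Cul3 (24.8), Mafg (19.2), Rbx1 (14.2), Mafk (11.0), Keap1 (9.88), Bach1 (6.72) and Maff (3.64 RPKM), again with overlapping neighbours. The length used for Rbx1, 4551 bases of merged exons, may exceed that of its mRNA, so its level per length may be understated.

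Genes known to be controlled by this module were examined next. Of 39 Nrf2 targets, 28 were higher in tumors (71.8%, against 23.6% of all genes tested) and 1 lower (2.56%, against 23.8%). Their median log2 fold change was 1.12, against -0.02 over all genes tested. These genes were written down with earlier results known and several are named by the study from these samples, so their direction is not independent evidence. The largest rises were those of Ptgr1 (prostaglandin reductase; log2 fold change 5.68, SE 0.352, adjusted p = 6.3e-11), Slc7a11 (the cystine importer; 5.02, SE 0.863, adjusted p = 6.2e-05) and Akr1b8 (an aldo-keto reductase with close copies; 3.58, SE 0.603, adjusted p = 4.9e-05). Normal kidney 7 alone moved Slc7a11 to 6.09 and Akr1b8 to 4.43 when left out. Without kidneys 5, 7 and 8, Slc7a11 was the highest of the 3 at 8.06, Ptgr1 was 5.91 and Akr1b8 5.47. This omission was chosen after seeing the data, and these kidneys had the highest mean levels of the 39 targets among normal kidneys. Leaving them out therefore favors larger rises of such genes and gives no separate evidence. Nqo1, the quinone reductase most often used as a readout, was 226 to 519 CPM in tumors and 62.5 to 262.8 CPM in normal kidneys (log2 fold change 1.53, adjusted p = 4.9e-05). Gstm2, a glutathione transferase in a family of near-identical genes, was the gene that fell (-1.42, adjusted p = 0.000298).

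Not every enzyme of glutathione and thioredoxin metabolism passed the test. Srxn1 (sulfiredoxin; 1.39, adjusted p = 0.0126) and Txnrd1 (thioredoxin reductase; 0.80, adjusted p = 0.0121) were called higher, at 2.71 and 1.35 without kidneys 5, 7 and 8. Gclc and Gclm, the subunits of the enzyme that limits glutathione synthesis, had log2 fold changes of 0.69 (adjusted p = 0.112) and 0.24 (adjusted p = 0.139). The Gclc result turned on normal kidneys, which reached 1402 CPM, as high as the highest tumor at 1405 CPM. Without normal kidney 5 its log2 fold change was 1.01 (adjusted p = 0.011), and without kidneys 5, 7 and 8 those of Gclc and Gclm were 1.56 (adjusted p = 3.1e-05) and 0.35 (adjusted p = 0.0382). The omitted kidneys had the highest target means among the normal kidneys, so these refits too give no separate evidence.

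Of 8 heme and iron genes known as targets of Bach1 repression, 4 were higher (50%, against 23.6% of all genes tested) and 1 lower (12.5%, against 23.8%). Their median log2 fold change was 0.88. Bach1 represses genes that overlap with those of Nrf2, so this list does not separate Bach1 from Nrf2, and the part of Bach1 was not tested. Blvrb (biliverdin reductase; 2.60, adjusted p = 4.5e-06), Slc40a1 (the iron exporter; 1.73, adjusted p = 3.6e-07), Alas1 (heme synthesis; 0.99, adjusted p = 0.00975) and Ftl1 (ferritin light chain; 0.96, adjusted p = 0.00326) were higher, and Fech (the last step of heme synthesis; -0.35, adjusted p = 0.0145) was lower. Hmox1, heme oxygenase, ranged from 307 to 1904 CPM in tumors and from 49.6 to 648 CPM in normal kidneys, with a log2 fold change of 0.80 and an adjusted p of 0.117. Slc40a1 and Hmox1 are also expressed by macrophages, whose markers were higher in tumors, and the part of these cells was not tested. Without kidneys 5, 7 and 8, the count of higher genes was 7 of 8, next to 4207 of all 15834 genes tested in that fit. Hmox1 was among the 7 (1.17, adjusted p = 0.0473), and Alas1 was then 1.66 and Blvrb 3.33. Those kidneys had the highest Nrf2 target means among the normal kidneys, so leaving them out gives no separate evidence here either.

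**Figure D4:**
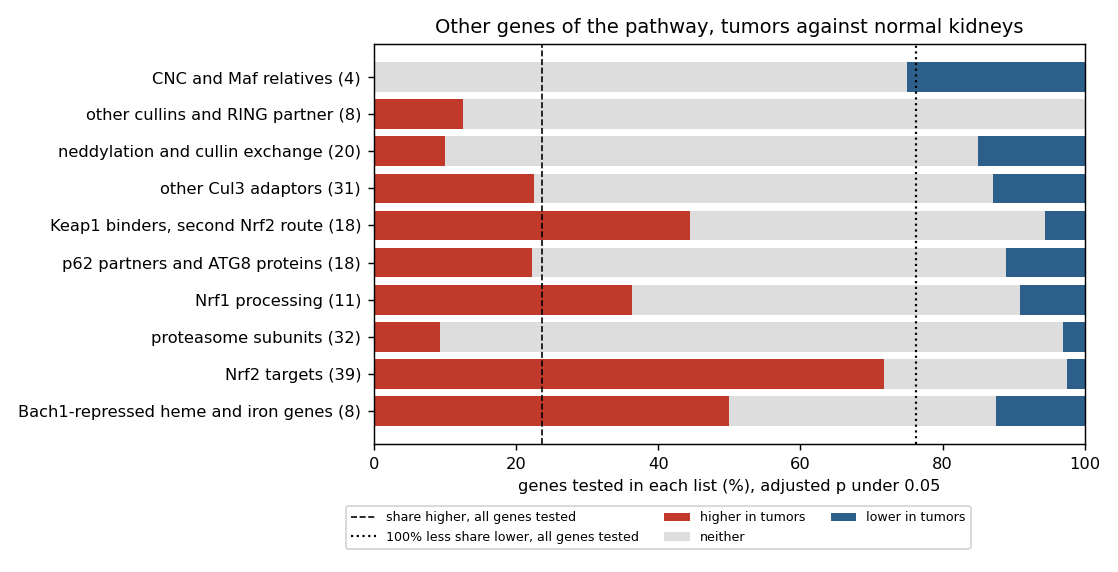
Share of the tested genes of each list (horizontal axis, percent; numbers tested in parentheses) that were higher in tumors (red), lower (blue) or neither (gray) at an adjusted p under 0.05. The dashed line marks the 23.6% of all genes tested that were higher and the dotted line leaves to its right the 23.8% that were lower; Nrf2 targets have the largest red share of the 10 lists, 71.8%.

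Fewer genes around the ligase were called. Among 8 further genes, 7 cullins and the RING partner Rnf7, Cul2, the scaffold of the Vhl ligase, was the 1 called gene (0.47, SE 0.0962, adjusted p = 0.000369). That is a share of 12.5% higher, against 23.6% of all genes tested. Cul1, Cul4a, Cul4b, Cul5, Cul7, Cul9 and Rnf7 had log2 fold changes from -0.17 to 0.19. Of 20 genes for attaching and removing the cullin activator Nedd8 or exchanging adaptors, 2 were higher and 3 lower. These shares of 10% and 15% compare with 23.6% and 23.8% of all genes tested. The counts ran from 1 to 11 higher and 2 to 6 lower over the alternatives. Uba3, a subunit of the Nedd8-activating enzyme, rose by 0.83 (adjusted p = 5.6e-07) and the exchange factor Cand1 by 0.29 (adjusted p = 0.0256), while Cand2 (-2.78, adjusted p = 9.8e-07), the Cop9 subunit gene Cops6 (-0.54, adjusted p = 0.00891) and Dcun1d1 (-0.23, adjusted p = 0.0155) fell. Cand1 was not called with upper-quartile scaling (0.17, adjusted p = 0.184) or library totals (0.15, adjusted p = 0.398), and without the filter on low counts neither Cand1 (adjusted p = 0.0524) nor Dcun1d1 (-0.22, adjusted p = 0.0708) was. Without normal kidney 9 the change of Cops6 was -0.34 (adjusted p = 0.00051).

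Keap1 competes for Cul3 with other BTB adaptors, of which 31 were tested. Of these, 7 were higher (22.6%, against 23.6% of all genes tested) and 4 lower (12.9%, against 23.8%), with a median of 0.05. Klhl13 (1.94, adjusted p = 1.2e-06) and Kctd17 (1.44, adjusted p = 9.0e-08) lay above every normal kidney in every tumor, as did 5.87% of all genes tested. Kctd10 rose by 0.84 (adjusted p = 0.000834). Klhl3, which also marks the distal convoluted tubule, fell by 2.16 (adjusted p = 0.000113) and Spop by 0.52 (adjusted p = 3.0e-05). Kbtbd7 fell by 0.45 with an adjusted p of 0.0469, and this call was lost when any of 15 of the 20 libraries was left out.

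A list of 18 genes covered proteins that bind Keap1 in place of Nrf2 and the Gsk3 and beta-TrCP route that degrades Nrf2 without Keap1. It also holds genes of neither kind, among them Eif2ak3 and Tfe3, so its shares are not those of a single class. Of the 18, 8 were higher (44.4%, against 23.6% of all genes tested) and 1 lower (5.56%, against 23.8%), with a median of 0.21. Eif2ak3 (0.67, adjusted p = 9.8e-05) and Tfe3 (0.45, adjusted p = 0.00403) were among the 8. Pgam5 (0.93, adjusted p = 1.7e-06), a mitochondrial phosphatase, and Dpp3 (0.86, adjusted p = 1.2e-05), a peptidase, both carry Keap1-binding motifs. For both, every tumor lay above every normal kidney, which held for 5.87% of all genes tested. Amer1 rose by 0.70 (adjusted p = 0.0322), a call lost with upper-quartile scaling (adjusted p = 0.0731) or library totals (adjusted p = 0.133), without tumor 2, 3 or 4 (adjusted p from 0.0566 to 0.058) and without kidneys 5, 7 and 8 (adjusted p = 0.0682). Of the genes of beta-TrCP, Btrc fell by 0.30 (adjusted p = 0.0239; 0.064 without the filter on low counts). The more abundant Fbxw11 (104 against 17.9 CPM of Btrc in tumors, by means) had -0.09 (adjusted p = 0.463). Of the kinases of this route, Gsk3b rose by 0.54 (adjusted p = 0.0131) and Gsk3a had -0.06 (adjusted p = 0.58). Eif2ak3, Fbxw11, Gsk3a, Gsk3b and Tfe3 were named after their values were seen. With library totals, 4 of the 18 genes were higher and 2 lower. That scaling also cut the share of calls over all genes that were higher from 49.8% to 38.5%.

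The partners of p62 in autophagy numbered 18, with 4 higher (22.2%, against 23.6% of all genes tested) and 2 lower (11.1%, against 23.8%). Without tumor 7 and normal kidney 9, 7 were higher, next to 4062 of all 15353 genes tested in that fit. Optn, a further autophagy receptor, rose by 2.12 (SE 0.173, adjusted p = 2.5e-09), above every normal kidney in every tumor, as did 5.87% of all genes tested. Wdr81 (0.61, adjusted p = 0.00534) and Tollip (0.46, adjusted p = 0.00032) were also higher, although Wdr81 was not called with library totals (0.45, adjusted p = 0.0688). The ATG8 genes Gabarapl1 (-0.73, adjusted p = 0.0356) and Map1lc3a (-0.59, adjusted p = 0.0256) were lower. The Gabarapl1 call was lost when any of 9 libraries was left out, normal kidney 9 and tumor 7 among them, and that of Map1lc3a without kidneys 5, 7 and 8 (-0.58, adjusted p = 0.052). Without normal kidney 9, Map1lc3a was at -0.32 (adjusted p = 0.024).

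Beside the rise of Nfe2l1, 4 of 11 genes that process Nrf1 were higher (36.4%, against 23.6% of all genes tested) and 1 lower (9.09%, against 23.8%). They included Ufd1 (0.61, adjusted p = 0.00465) and Vcp (0.50, adjusted p = 0.00241), which extract proteins from the endoplasmic reticulum membrane, and Usp15 (0.49, adjusted p = 0.00033). Ngly1, the deglycosylating enzyme that Nrf1 needs, fell by 0.25 (adjusted p = 0.0382), a call lost when any of 8 libraries was left out. The 32 proteasome genes, the classical targets of Nrf1, were called higher in 3 cases (9.38%) and lower in 1 (3.12%), with a median of -0.03. Psmd8 (1.89, adjusted p = 1.0e-07; 385 to 769 CPM in tumors and 109 to 303 CPM in normal kidneys), Psmd14 (0.57, adjusted p = 0.000319) and Psmd1 (0.43, adjusted p = 0.0159) rose, and Psma4 fell by 0.43 (adjusted p = 0.00286). Psmd1 was not called with upper-quartile scaling (0.32, adjusted p = 0.0613) or library totals (0.30, adjusted p = 0.13), and it was 0.71 without kidneys 5, 7 and 8. This count depended on the libraries and their weights. It was 16 higher and 2 lower with limma-voom quality weights, 6 higher without kidneys 5, 7 and 8, and 7 lower with library totals. The background moved too, with 4207 of 15834 genes tested higher without kidneys 5, 7 and 8, against 3631 of 15354 in the main fit. Of all calls, 38.5% were higher with library totals and 49.7% with quality weights, against 49.8% in the main fit. Normal kidney 9 had the highest summed level of the proteasome genes at 5383 CPM (normal median 2792 CPM, tumors 3157 to 4052 CPM).

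Of 7 other genes of the CNC and Maf families, 4 could be tested and 1 was called, as lower (25% of those tested, against 23.8% of all genes). Bach2, the lymphoid relative of Bach1, fell by 1.94 (SE 0.308, adjusted p = 2.5e-05), from 0.628 to 7.54 CPM in normal kidneys to 0.684 to 2.05 CPM in tumors. Of 5 B cell markers, 2 could be tested, and these 2 were lower (100%, against 23.8% of all genes tested). The summed B cell markers were 5.24 to 251.9 CPM in tumors against 18.6 to 1038 CPM in normal kidneys. The part of B cells was not tested. Maf (0.76, adjusted p = 0.0507) and Nfe2l3 (-0.58, adjusted p = 0.51) did not pass. Maf passed without any 1 of normal kidneys 1 and 10 and tumors 6, 7 and 9. Nfe2, Mafa and Nrl were too low to be tested, and Nrl was at 0 in all 20 libraries.

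Within the tumors, Sqstm1 was the 1 member whose relation with the Nrf2 targets passed. Sqstm1 is itself a target of Nrf2, though not among the 39 listed, so the relation gives no direction of control. The mean log2 CPM of the 39 targets was correlated with each of the 10 genes within each group, which made 20 relations with Benjamini-Hochberg adjustment over them. In 10 tumors, Sqstm1 had Pearson's r of 0.91 (two-sided permutation p = 5e-05, adjusted 0.001) and Spearman's rho of 0.90 (permutation p = 0.0008, adjusted 0.016). Without tumors 7 and 8, the farthest from the median of Sqstm1, r was 0.76 over 8 tumors (exact permutation p = 0.0245). With levels scaled by library totals r was 0.85, and its adjusted permutation p of 0.0569 missed the threshold. All levels share the scaling of their library. Proximal tubule markers moved with both measures. Tumors 7, 8 and 5, which had the lowest Sqstm1 and the lowest target means (7.85, 8.09 and 8.14), had summed proximal tubule markers of 1132, 3102 and 4743 CPM, and tumors 2, 3 and 4, which had the highest Sqstm1, had 9566, 6675 and 8503 CPM. Tumor 9 had 3659 CPM with a target mean of 8.33. Tumor 7 also had the highest fibroblast and macrophage markers, and r without it was 0.82 over 9 tumors (adjusted permutation p = 0.048). The part of tissue composition in this relation was not tested.

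The relations of Keap1 and Nfe2l2 with the targets did not pass in tumors. Keap1 had r of 0.77 (permutation p = 0.0161, adjusted 0.0804) and rho of 0.54 (permutation p = 0.113, adjusted 0.341), but r was 0.34 without tumors 7 and 4 (exact permutation p = 0.421). Leaving out a single tumor already gave an r as low as 0.36, so the relation rested on 1 tumor. Tumor 7 had both the lowest Keap1 and the lowest target mean. Nfe2l2 had r of -0.21 (permutation p = 0.551, adjusted 0.652) and rho of -0.27 (permutation p = 0.449, adjusted 0.561), and r was -0.66 without tumors 5 and 9 (exact permutation p = 0.0788).

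In the normal kidneys, the relations of Nfe2l2 and Maff passed over all 10 libraries but not when most single kidneys were left out. Nfe2l2 had r of 0.78 (permutation p = 0.0072, adjusted 0.048) and rho of 0.75 (permutation p = 0.018, adjusted 0.18), and r was 0.69 without kidneys 5 and 8 (exact permutation p = 0.0319). Maff had r of 0.80 (permutation p = 0.00539, adjusted 0.048) and rho of 0.56 (permutation p = 0.097, adjusted 0.341), and r was 0.78 without kidneys 5 and 9 (exact permutation p = 0.0303). The adjusted permutation p of both missed the threshold when any kidney other than kidney 7 was left out. Sqstm1 had r of 0.64 (permutation p = 0.0438, adjusted 0.146) and rho of 0.66 (permutation p = 0.0438, adjusted 0.292), with r of 0.67 without kidneys 9 and 5 (exact permutation p = 0.05). Keap1 had r of -0.18 (permutation p = 0.652) and rho of -0.01 (permutation p = 1), and its r turned to 0.64 without kidneys 9 and 7 (exact permutation p = 0.0831).

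Kidneys 5, 7 and 8, which stood apart in injury markers, had the highest target means, 7.42, 7.48 and 6.97, next to 6.79 in kidney 9 and 6.23 to 6.59 in the other 6. Within the 7 kidneys without high injury markers, r was 0.70 for Nfe2l2 (exact permutation p = 0.0748), 0.76 for Sqstm1 (exact permutation p = 0.0595), 0.62 for Maff (exact permutation p = 0.179) and -0.80 for Keap1 (exact permutation p = 0.0399). After adjustment over the 10 relations in these kidneys none passed (adjusted permutation p = 0.171 for Nfe2l2, Sqstm1 and Keap1 and 0.199 for Maff), and 1, that of Keap1, had an unadjusted exact permutation p under 0.05. Their rho values, in the same order, were 0.46, 0.57, -0.04 and -0.43 (exact permutation p = 0.302, 0.2, 0.963 and 0.354). These 7 kidneys include kidney 9, whose long genes took few counts. Among the 7 it had the highest target mean, the lowest Keap1 (36.6 CPM) and the highest Nfe2l2, Sqstm1 and Maff (142.3, 1006 and 29.9 CPM). The values of r for these kidneys were not computed without kidney 9.

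**Figure D5:**
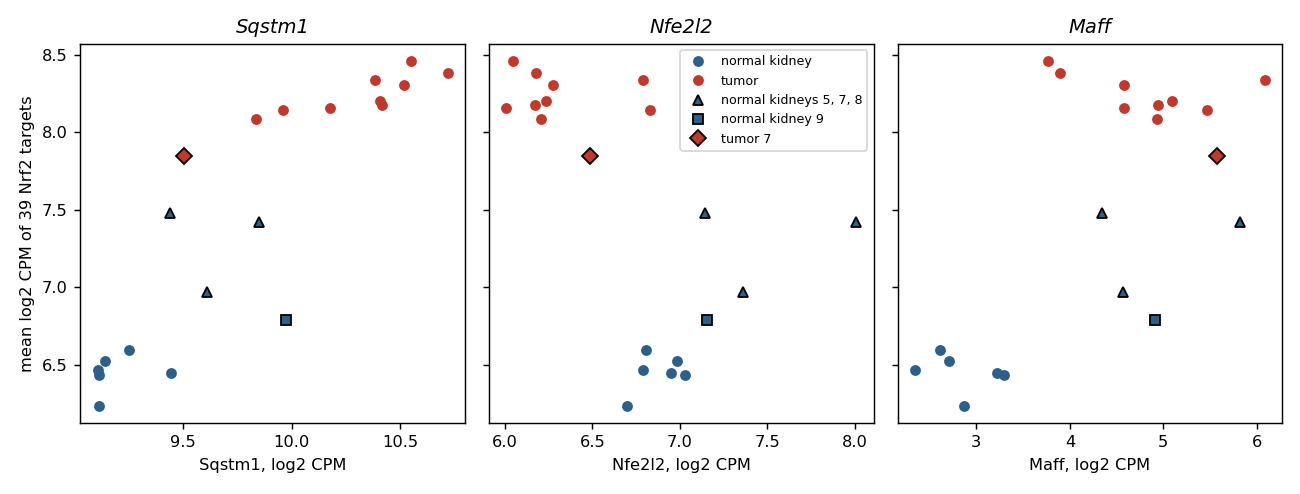
Mean log2 CPM of 39 Nrf2 targets (vertical axis) against log2 CPM of Sqstm1, Nfe2l2 and Maff (horizontal axes) in 10 tumors (red) and 10 normal kidneys (blue). Tumors lie between 7.85 and 8.46 on the vertical axis and follow Sqstm1 with r of 0.91, while normal kidneys 5, 7 and 8 lie between the other kidneys and the tumors.

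Finally, the genes most like 4 of the members were sought among 12421 protein-coding genes by Spearman's rho over the 20 libraries after removal of each group's mean, as a description. Nfe2l2 was followed most closely by Pnrc1 (0.86), Scarb1, Slc39a7, Csrnp1 and Mcl1 (0.85 each), all of which were at 0.82 or above without tumor 7 and normal kidney 9. Sqstm1 was followed by Sars (0.86), Crem (0.84), Serp1 (0.83), Gpihbp1 and Ddit3 (0.82 each), of which Crem and Ddit3 fell to 0.69 without tumor 7 and normal kidney 9 and the others were at 0.77 or above. Mafg varied with Baz2b (0.91), Snx18 (0.87), Epc1 (0.86), Cyp26b1 and Gpr17 (0.81 each), all at 0.79 or above without these libraries. Keap1 had the weakest following, with Cul4b (0.81), Zscan21 (0.78), Cdc14b, Nhs and Vps26a (0.76 each), which were at 0.64 to 0.77 without them, and its rho with Nfe2l2 was -0.11 and with Cul3 0.31.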

How the data were processed

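RNA from 10 tumors and 10 normal kidneys was extracted with Trizol and sequenced as read pairs after poly A enrichment by a company. The authors deposited raw counts per gene, without normalization, and a gene length. The submitters' processing notes name mm10. The aligner, the counter and the use of strand are not given in the sources used here. Coordinates are those of the count table.

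Groups and replicate numbers were taken from the labels. Counts were scaled with TMM factors and tested with edgeR 4.0.16 (R 4.3.3; quasi-likelihood, all 20 libraries, no covariate) after its filter with a count minimum of 10. CPM and RPKM use TMM-scaled totals and the table's length, and log2 CPM a prior count of 2. Spreads of 10 libraries per group carry both biological and technical error. No 2 libraries of a group agreed within sampling noise. Table columns left unused numbered 0. Alternatives used DESeq2 1.42.0 and limma 3.58.1, other scalings, no filter, a replicate block and omitted libraries. P-values of correlations came from 100000 permutations or, where called exact, from every permutation. The code was tested on simulated data.

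The genes, lists and tests were chosen with earlier results of these data known. Genes named are the 10 genes, their family and cullin relatives, 7 common Nrf2 readouts, the 3 largest called rises and falls of each other list, and the 5 protein-coding genes most like Keap1, Nfe2l2, Sqstm1 and Mafg. A gene that this rule covers is not reported here.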

Additional observations from a re-analysis of the deposited data

Results flagged for a closer look

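In 6 of 20 sets of 10 libraries (10 genes in 2 groups), 1 library lay far from the others by Dixon's criterion, which chance alone meets in about 1 of 20 sets. The values are log2 CPM.

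Keap1 was 5.81 in tumor 7, against 6.22 to 6.51 in the other tumors, and tumor 7 also had the highest fibroblast and macrophage markers. Normal kidney 9 set apart 4 of the 6 sets. There Cul3 was 6.41 (6.84 to 7.09 in the other kidneys), Nfe2l1 was 7.52 (7.90 to 8.31) and Bach1 was 4.23 (5.06 to 5.74), all low, while Rbx1 was high at 7.14 (5.90 to 6.41). In the same library long genes took 18.0% of counts, against at least 33.7% in the other kidneys. Nfe2l2 was 8.01 in normal kidney 5, against 6.70 to 7.36, and this kidney also had the highest Maff and the highest summed immediate early genes. Whether composition or library quality had a part in these values was not tested.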

How the results depend on the processing

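Across 30 alternatives for each of the 10 genes, 274 of 300 fold changes kept their direction and side of the threshold. Keap1, Bach1, Sqstm1 and Nfe2l2 stayed called in all of them (log2 fold changes 0.69 to 0.87, 0.74 to 0.99, 0.73 to 1.18 and -0.91 to -0.57). With library totals 3 genes rather than 5 were higher, since Nfe2l1 (0.27) and Mafg (0.29) were not called; Mafg was 0.31 with upper-quartile factors. These scalings moved the median of all genes to -0.14 and the share of calls that were higher from 49.8% to 39.2% and 38.5%. Cul3 turned to 0.0015 without the filter and to 0.031 without kidneys 5, 7 and 8. Rbx1 turned to 0.12 with voom quality weights and 0.060 without tumor 7 and normal kidney 9. Maff was called with voom (1.22), quality weights (1.69), the replicate block (1.23) and without kidneys 5, 7 and 8 (1.67), and Mafk likewise (0.31, 0.37, 0.31 and 0.47). The causes were not tested.

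Leaving out 1 library gave Cul3 -0.065 to 0.012, Rbx1 -0.096 to 0.081, Rnf7 -0.17 to 0.044, Maff 0.75 to 1.34 and Mafk 0.23 to 0.40. Reversals among other genes were Cul4a with upper-quartile factors (-0.040) and totals (-0.062), Cul4b with totals (-0.024), Nfe2l3 without kidneys 5, 7 and 8 (0.19), and Rnf7 with quality weights (0.012) and without tumor 7 and normal kidney 9 (0.034). With totals 0 of 20 target correlations passed by the permutation test (6 unadjusted), against 3 (6 unadjusted; Sqstm1 in tumors, Nfe2l2 and Maff over all 10 kidneys), and 1 to 5 with a library left out. Reversed r values were Nfe2l2 in tumors with totals (0.029) and Keap1 in kidneys with totals (0.18), with 1 kidney left out (-0.49 to 0.21) and without the 2 farthest kidneys (0.64). Among list counts, Nrf2 targets stayed at 27 to 34 higher and 1 lower, while 80 of 600 list counts moved by over 1.5 times. With quality weights the higher counts were 16 of 32 proteasome genes (3 as reported), 11 of 20 Nedd8 and exchange genes (2), 8 of 18 p62 partners (4), 7 of 8 Bach1-repressed genes (4) and 3 of 8 cullin genes (1). Over all genes, 49.7% of calls were higher with these weights. The share of all genes called with them is not set beside these counts, so the counts alone are no result about these lists.

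The labels do not say that equal numbers mark 1 mouse. Deviations from the group means correlated at 0.19 to 0.38 for 9 same-numbered pairs and at -0.14 for pair 9, and 8 of 10 tumors correlated best with their own number. With the replicate block, Maff (adjusted p = 0.000818), Mafk (0.00431) and Maf (0.0104) were called and Map1lc3a (0.0745) was not; this changed no other call among the genes named.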
